A study of Mus musculus with 9 samples.

Results

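The genes Spp1, Ibsp, Dmp1 and Mepe, the bone members of the SIBLING family (small integrin-binding ligand, N-linked glycoproteins), were followed through osteoblast differentiation in culture. They were chosen by name, and all 4 had a row among the 40548 genes of the deposited tables, with values in all 9 libraries. The cells were primary calvarial osteoblasts from the skull of newborn mice (C57BL/6 and postnatal day 2-3 in the labels, C57BL/6J in the methods), of both sexes according to the methods. The methods name wild type and ColI-GFP reporter pups as sources of such cells, and the sources used here do not say which were sequenced. Day 0 cells (3 libraries) were confluent and had not been differentiated, whereas day 4 cells (3 libraries) and day 7 cells (3 libraries) had spent that time in mineralization medium, which contains ascorbic acid and β-glycerol phosphate. By the labels, mineralized cells were released with collagenase before trypsin and non-mineralized cells with trypsin alone, so stage and release cannot be told apart. Total RNA was depleted of ribosomal RNA and sequenced. The reads assigned to genes numbered 7741204 to 14013219 per library at day 0, 32820610 to 37306090 at day 4 and 10675858 to 15622755 at day 7. The deposited table of day 0 also holds day 7, but day 4 was deposited separately, so levels were tested only between day 0 and day 7, and day 4 enters tests only through ratios between members of the same library.

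SIBLING proteins are acidic, highly phosphorylated and secreted, carry an Arg-Gly-Asp motif that integrins bind, and are laid down in the matrix of bone and dentin. Spp1 encodes osteopontin, which is made by many cell types, binds integrins and CD44 and, when phosphorylated, slows the growth of mineral crystals. Ibsp encodes bone sialoprotein, which is found mainly in mineralizing tissues and can nucleate hydroxyapatite. Dmp1 encodes dentin matrix protein of the osteocyte and late osteoblast, whose loss causes hypophosphatemic rickets, and Mepe encodes an osteocyte glycoprotein whose acidic C-terminal peptide inhibits mineralization. Dspp, the remaining gene of the family, encodes the main non-collagenous proteins of dentin.

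The 4 genes lie in a cluster on the plus strand of mouse chromosome 5 (GRCm38, GENCODE M21), Dmp1 at chr5:104202613-104214102, Ibsp at chr5:104299171-104311469, Mepe at chr5:104325329-104338611 and Spp1 at chr5:104435118-104441050. From the start of Dmp1 to the end of Spp1 the cluster covers 238.4 kb. Their proximal promoters are shown because the levels of these neighbours differed by orders of magnitude, while ATTGG and an AT-rich box lie at the same spacing near each start. The sequences below are 150 bases each from the RefSeq promoter table (GRCm38.p6), aligned on ATTGG, the reverse complement of the CCAAT box. Capitals mark ATTGG, the AT-rich box TTTAAA or TTTATA that begins 26 bases after its first base, and the core of the site bound by Runx2, TGTGGT or its reverse complement ACCACA.
Dmp1, chr5:104202450-104202599, plus strand: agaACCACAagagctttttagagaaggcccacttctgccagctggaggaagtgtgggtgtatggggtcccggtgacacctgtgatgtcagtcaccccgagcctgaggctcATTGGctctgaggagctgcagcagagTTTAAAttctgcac
Ibsp, chr5:104299123-104299272, plus strand: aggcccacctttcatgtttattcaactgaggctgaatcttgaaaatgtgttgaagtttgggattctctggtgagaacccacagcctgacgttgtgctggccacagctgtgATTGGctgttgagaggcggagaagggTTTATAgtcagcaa
Mepe, chr5:104325198-104325347, plus strand: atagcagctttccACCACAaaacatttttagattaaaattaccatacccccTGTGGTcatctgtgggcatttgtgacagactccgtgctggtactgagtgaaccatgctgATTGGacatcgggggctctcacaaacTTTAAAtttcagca
Spp1, chr5:104434955-104435104, plus strand: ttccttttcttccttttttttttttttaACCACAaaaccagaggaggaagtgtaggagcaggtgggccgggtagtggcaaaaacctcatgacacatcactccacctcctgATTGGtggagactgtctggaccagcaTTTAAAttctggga

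All 4 windows held ATTGG, then 21 bases, then the AT-rich box, which reads TTTAAA in Dmp1, Mepe and Spp1 and TTTATA in Ibsp. Of the 32851 RefSeq promoter windows (250 bases before to 50 after a start), 17 (0.0517%) held this arrangement on the plus strand of the gene, and they belonged to 13 genes. ATTGG with either box at any distance was present in 1307 windows (3.98%). The spacing was noticed in these sequences and then counted, so the count is a description. Sost, an osteocyte gene whose product inhibits Wnt signaling, was also among the 13 genes and is named after this was seen. The rest were Gm30256, Gm33539, Gm40986, Gm42352, Mbd3, Olfr776, Olfr799 and Vsnl1, none of which is on the gene lists used here. ATTGG began at −57 in Dmp1, −54 in Ibsp, −21 in Mepe and −46 in Spp1, counted from the RefSeq start. The box began at −31 in Dmp1, −28 in Ibsp and −20 in Spp1, but 5 bases after the start in Mepe. The RefSeq start lay 116 bases downstream of the GENCODE gene start in Ibsp, whereas in the other 3 genes both starts were within 7 bases, so the Ibsp stretch lies mostly inside the GENCODE gene. The Runx2 core, searched on both strands in the 250 bases before the start, was found at −164 in Dmp1, at −118 and −80 in Mepe and at −128 in Spp1. The Ibsp window held no match to these letters. Across all windows of 250 bases, 14.0% held the core and 33.8% held CCAAT on either strand.

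Spp1 was by far the most abundant member before differentiation. Levels are given as RPKM, the reads per kilobase of gene model scaled to the reads on genes of a library, which allows a comparison between genes of different length. Spp1 stood at 1104, 842 and 937 RPKM in the day 0 libraries. The values were 5086, 6496 and 5656 for day 4 and 4058, 2974 and 2792 for day 7. The stages did not overlap: all of day 4 lay above all of day 7, which in turn lay above all of day 0. The stage means were 961 ± 133, 5746 ± 710 and 3275 ± 685 RPKM (SD, n = 3), and day 4 was 5.98-fold above day 0 and 1.75-fold above day 7. Ranked by RPKM among the 40526 genes present in all tables, Spp1 was 27th to 31st at day 0, 7th to 9th at day 4 and 11th to 17th at day 7.

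Ibsp went from a low level to one near that of Spp1. It was at 3.38, 3.52 and 4.56 RPKM in the day 0 libraries, with 73 to 98 reads each. At day 4 it was at 981, 1296 and 1199 RPKM, and at day 7 at 3217, 2867 and 2338 RPKM. Each stage lay above the one before in every library. The means were 3.82 ± 0.644, 1159 ± 162 and 2808 ± 442 RPKM (SD, n = 3), so that day 4 was 303-fold and day 7 was 735-fold above day 0. From day 4 to day 7 the mean differed 2.42-fold, and day 4 stood at 41.3% of the day 7 level. Its rank by RPKM moved from between 7017 and 8749 at day 0 to between 28 and 33 at day 4 and between 14 and 19 at day 7.

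Dmp1 was nearly silent at day 0 and at day 4 had levels that overlapped with day 7. The day 0 libraries held 6, 5 and 6 reads, or 0.155, 0.151 and 0.281 RPKM. A total of 17 reads has an exact Poisson 95% interval of 9.90 to 27.2 reads, which covers counting error only. At day 4 Dmp1 was at 72.7, 98.5 and 69.4 RPKM and at day 7 at 122, 67.4 and 59.1 RPKM. Days 4 and 7 overlapped, with means of 80.2 ± 15.9 and 82.9 ± 34.2 RPKM (SD, n = 3), and both stages lay above every day 0 library. On pooled reads the day 7 rate was 454-fold that of day 0, with a counting interval of 283 to 779. The wide spread at day 7 came from replicate 1, which had 4602 reads against 1988 and 2549 in the others.

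Mepe had the same direction at a far lower level. It had 0, 0 and 1 reads in the day 0 libraries, against 78, 182 and 157 reads at day 4 and 112, 70 and 51 reads at day 7. In RPKM these were 0, 0 and 0.0768 at day 0, then 1.41, 2.90 and 2.59, and then 4.87, 3.90 and 1.94. Days 4 and 7 overlapped, at 2.30 ± 0.784 and 3.57 ± 1.49 RPKM (SD, n = 3), and both lay above day 0 in every library. Because day 0 rests on a single read, the pooled rate at day 7 was 197-fold that of day 0 with a counting interval of 34.9 to 7797. Dspp had 0 reads in all 9 libraries, where 3 reads would have been 0.0804 to 0.387 CPM (the same unit without the division by length), so its transcript was not detected at this depth. Of 5 related tooth and enamel genes of the same larger family, 4 were also listed at 0 and Ambn, which encodes ameloblastin, had at most 1 read in a library.

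**Figure D1:**
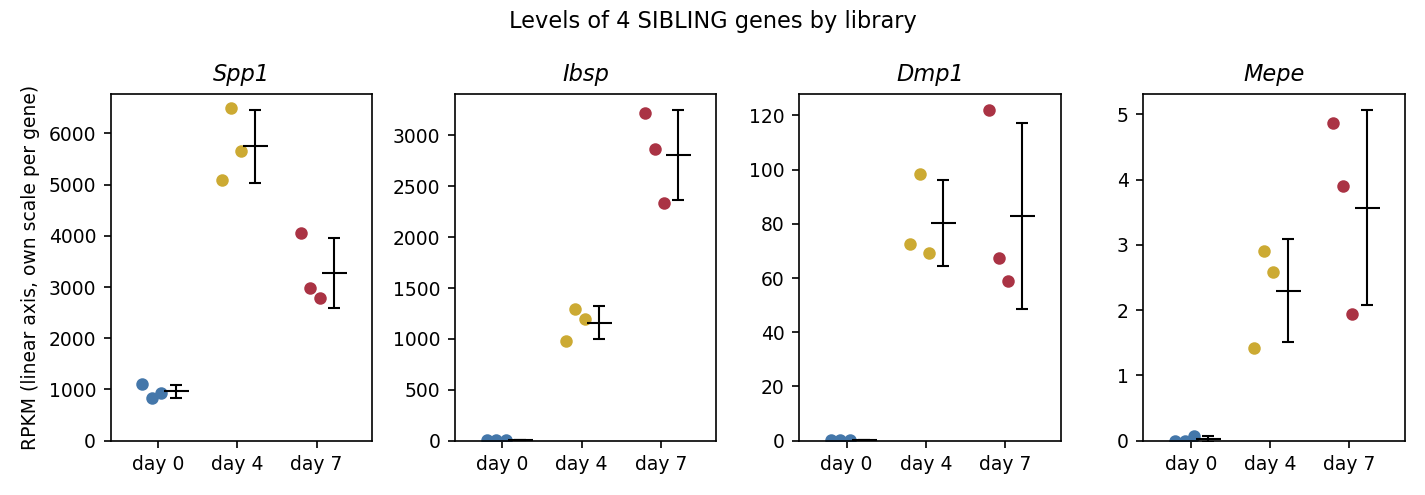
RPKM of the 4 genes (a linear axis for each gene, starting at 0) in the 3 libraries of day 0, day 4 and day 7, with coloured points for libraries and black marks for the mean ± SD. Spp1 is highest at day 4, Ibsp at day 7, and the day 4 and day 7 libraries of Dmp1 and of Mepe overlap.

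Spp1 and Ibsp differed in timing from each other, whereas Dmp1 and Mepe shared 1 pattern, above day 0 at day 4 and overlapping between days 4 and 7. Spp1 at day 4 stood at 176% of its day 7 mean, Dmp1 at 96.8%, Mepe at 64.4% and Ibsp at 41.3%. For background, among 12782 genes with a mean of at least 1 CPM over the 9 libraries, 21.6% had all day 4 libraries above those of day 0, as all 4 members did. All 3 day 7 libraries exceeded all 3 of day 4 in 13.6% of genes, Ibsp among them, and below in 25.0% of genes, Spp1 among them. In RPKM the replicates of a stage also differed in a shared manner. Day 4 replicate 2 was the highest of its stage for each member. At day 7 replicate 1 was the highest and replicate 3 the lowest for each. This order depended in part on scaling. With RPKM set to the same total in every library (TPM), replicate 1 stayed highest at day 7 for each member. Replicate 2 was then the lowest for Spp1, Ibsp and Dmp1, and day 4 replicate 3 was the highest for Ibsp. In bulk RNA, fewer cells that express a gene and less of its RNA per cell cannot be told apart.

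The order of abundance was Spp1, Ibsp, Dmp1 and Mepe in all 9 libraries. At day 0 and day 4 no level of a member overlapped with that of its neighbour in this order. At day 7 the range of Spp1 (2792 to 4058 RPKM) overlapped with that of Ibsp (2338 to 3217 RPKM), although Spp1 was the higher of the pair within each library. Summed over the 4 genes, the family stood at 965 ± 133, 6987 ± 878 and 6169 ± 1128 RPKM (SD, n = 3) at days 0, 4 and 7. It took 0.140 to 0.183% of all CPM at day 0, 1.06 to 1.37% at day 4 and 0.960 to 1.37% at day 7, so the total of days 4 and 7 overlapped while the shares of Spp1 and Ibsp did not. Of the summed RPKM, Spp1 accounted for 99.6 ± 0.102%, 82.3 ± 0.584% and 53.0 ± 2.37% at these stages. Ibsp took 0.402 ± 0.0902%, 16.6 ± 0.679% and 45.7 ± 2.58%. Dmp1 stayed near 1% after day 0, at 1.15 ± 0.128% and 1.31 ± 0.294%, and Mepe at 0.0324 ± 0.00812% and 0.0564 ± 0.0165%.

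**Figure D2:**
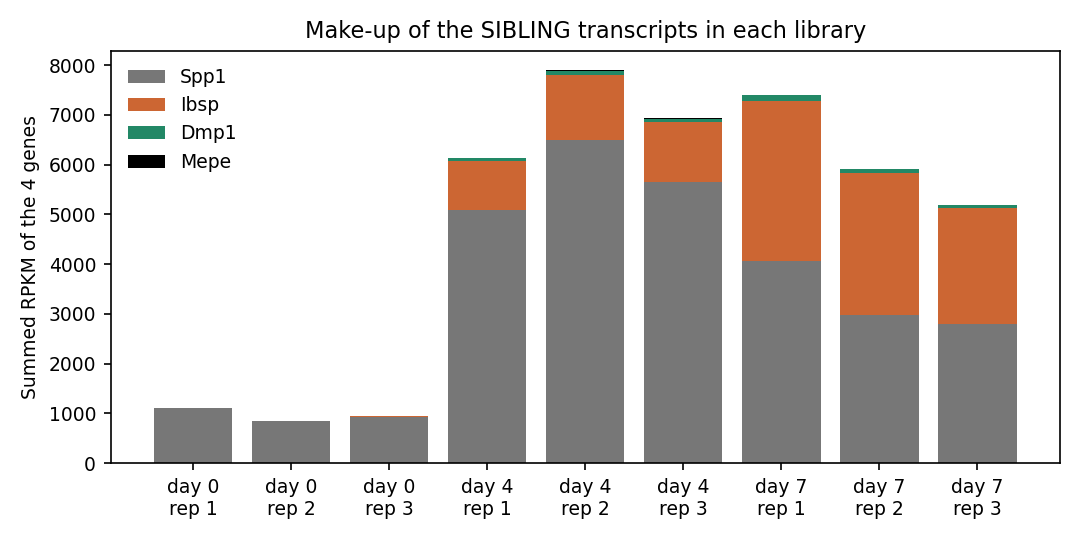
Summed RPKM of Spp1, Ibsp, Dmp1 and Mepe in each library, stacked from the bottom in that order. The bars of day 4 and day 7 have similar heights, and the Ibsp share is 16.6% at day 4 and 45.7% at day 7.

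Ratios between members within a library do not depend on how that library was scaled, so the scaling of separate tables does not enter them. Any difference between the tables that touches 1 member more than another would remain, and day 4 is the only stage of its table. Spp1 exceeded Ibsp 327-, 239- and 206-fold in the day 0 libraries, 5.19-, 5.01- and 4.72-fold at day 4, and 1.26-, 1.04- and 1.19-fold at day 7. Thus the log2 ratio went from 7.98 ± 0.34 to 2.31 ± 0.07 and then 0.21 ± 0.15 (SD, n = 3), with no overlap between stages. Between day 4 and day 7 it dropped by 2.10 (exact permutation test, two-sided, p = 0.1, adjusted p = 0.133 over the 12 ratio comparisons). With 3 libraries against 3 the smallest p this test can give is 0.1, so none of the 12 comparisons could pass 0.05. Spp1 over Dmp1 was 12.31 ± 0.56, 6.17 ± 0.16 and 5.36 ± 0.27 on the log2 scale, again without overlap, and Spp1 over Mepe went from 11.35 ± 0.41 at day 4 to 9.92 ± 0.50 at day 7. Each of these changes had the same exact permutation p of 0.1.

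Up to day 4 the ratio of Ibsp to Dmp1 overlapped between stages, and at day 7 it was higher. Ibsp over Dmp1 was 21.8, 23.2 and 16.2 in the day 0 libraries and 13.5, 13.2 and 17.3 at day 4, where the libraries overlapped with day 0 (exact permutation p = 0.2). At day 7 it was 26.4, 42.5 and 39.6, above every library of both earlier stages (exact permutation p = 0.1 for each). Thus, the log2 ratio differed by 1.29 between day 4 and day 7, while the day 0 values rest on 5 or 6 reads of Dmp1 per library. The ratios of Ibsp and of Dmp1 to Mepe overlapped between days 4 and 7, at 9.03 ± 0.35 and 9.71 ± 0.46 for Ibsp and at 5.17 ± 0.48 and 4.56 ± 0.41 for Dmp1 (log2, SD, n = 3; exact permutation p = 0.2 for both).

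**Figure D3:**
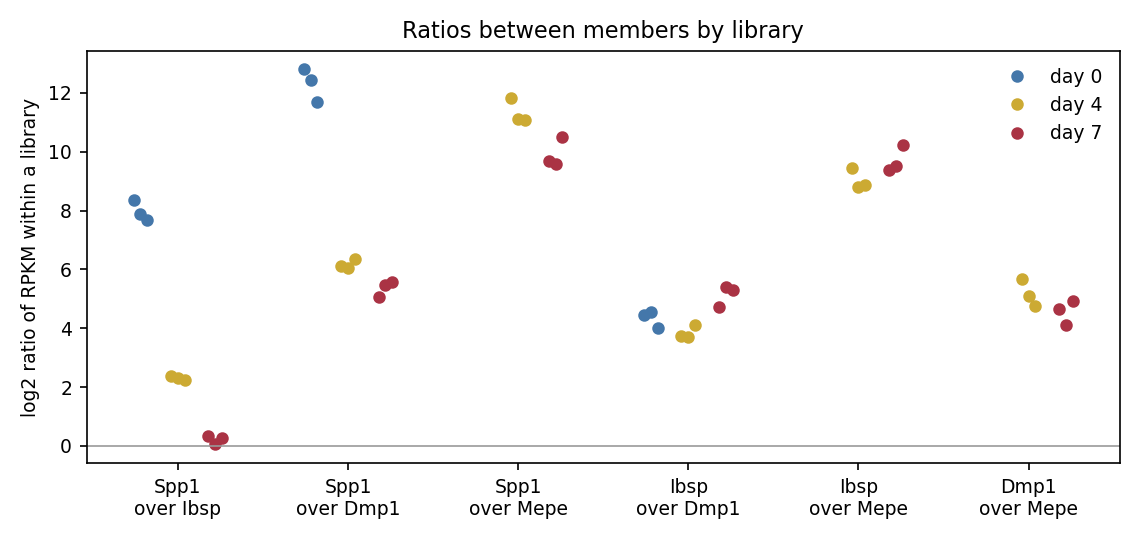
The log2 ratio of RPKM of each pair of members within a library, coloured by stage, with 3 points per stage. Ratios to Mepe are not drawn at day 0, where Mepe had at most 1 read, and Spp1 over Ibsp ends near 0 at day 7.

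All 4 members rose between day 0 and day 7 in the test across the 12712 genes with a mean CPM of 1 or more, on log2(CPM + 0.5), where 12.6% of genes were called higher at an adjusted p under 0.05 and 18.6% lower. Rescaling by median-of-ratios factors changed the counts over all genes from 1602 to 2843 higher and from 2369 to 2611 lower. The log2 difference was 9.43 for Ibsp (SE 0.16, limma adjusted p = 1.33e-41), 7.73 for Dmp1 (SE 0.21, limma adjusted p = 7.06e-33) and 1.76 for Spp1 (SE 0.19, limma adjusted p = 1.41e-10). For Mepe it was 3.51 (SE 0.29, limma adjusted p = 2.33e-14), a value set by the pseudocount because day 0 is near 0, and it ran from 2.68 to 7.62 over the other settings. With this pseudocount, the 95% intervals of Ibsp (9.11 to 9.75), Dmp1 (7.31 to 8.14) and Spp1 (1.37 to 2.14) did not overlap. The value of Dmp1 also depends on the pseudocount, since its day 0 libraries stood at 0.418 to 0.775 CPM. For Dmp1 the difference ran from 6.84 to 8.98 over the other settings. Its counting interval between day 0 and day 7, 283- to 779-fold, held the 735-fold rise of the Ibsp mean. The gap between Ibsp and Dmp1 therefore cannot be read from these 95% intervals. By single gene, the exact permutation p was 0.1 for each member, the smallest this design allows, and the day 7 libraries all exceeded those of day 0, as in 16.9% of all genes tested. The limma p-values rest mostly on the variance trend over all genes (42.9 prior against 4 residual degrees of freedom).

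The genes on either side of the cluster had smaller differences, from −1.07 to 0.56. Upstream of Dspp, the log2 difference was −0.17 for Klhl8 (SE 0.18) and −0.31 for Hsd17b11 (SE 0.19), neither past the test (limma, adjusted p = 0.505 and 0.23). Nudt9, which encodes an ADP-ribose hydrolase, rose by 0.56 (SE 0.16, limma adjusted p = 0.00497). Sparcl1, which encodes a secreted relative of the matrix protein osteonectin and lies 57 kb before Dspp, fell by 1.07 (SE 0.26, limma adjusted p = 0.000987), at 0.952 RPKM at day 0 and 0.377 at day 7, and it overlaps an antisense gene of the tables. Klhl8, Nudt9 and Spp1 also overlap other annotated genes in GENCODE M21, for Spp1 the same-strand gene Gm42793, which has no row in the tables, and the strand setting of the counting is not known. Pkd2, which encodes the cation channel polycystin-2 and starts 18.4 kb after the end of Spp1, fell by 0.81 (SE 0.16, limma adjusted p = 5.54e-05). Hsd17b13 had at most 1 read in a library. Within the cluster, Mepe begins 13.9 kb after the end of Ibsp, and Spp1 begins 96.5 kb after the end of Mepe.

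**Figure D4:**
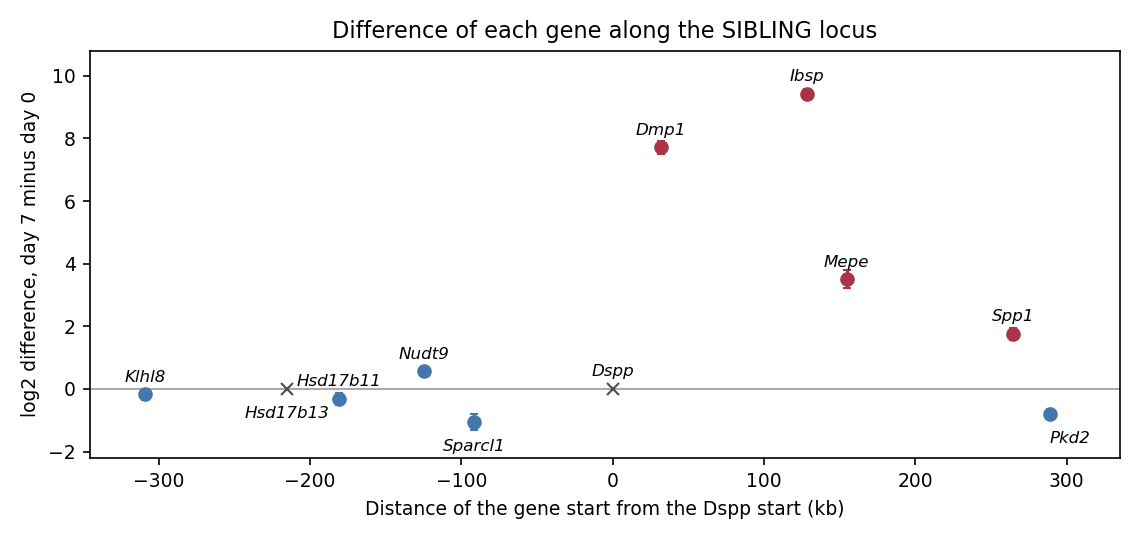
The log2 difference between day 7 and day 0 (points, with bars for SE) against the distance of each gene's start from that of Dspp in kb, members in red and neighbours in blue. Crosses at 0 mark Dspp and Hsd17b13, which were not tested, and the 5 tested neighbours lie between −1.07 and 0.56.

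To set the members beside the genes that act on them, 40 genes whose products modify, bind or control SIBLING proteins were read from the same fit. Of the 38 tested, 13 (34.2%) were higher at day 7, 9 (23.7%) lower and 16 not called. Over all genes tested, 12.6% were higher and 18.6% lower. The median log2 difference was −0.01 for the 38 genes against −0.11 over all genes tested. Rescaling by median-of-ratios factors gave 16 higher and 8 lower, and over all 12712 genes 2843 higher and 2611 lower.

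Among 15 tested genes that modify or cleave the proteins, 6 (40.0%) rose and 3 (20.0%) fell, against 12.6% and 18.6% of all genes. Phex, an endopeptidase of osteocytes that cleaves acidic peptides of this family and is lost in X-linked hypophosphatemia, had means of 0.183 ± 0.0851, 7.04 ± 2.12 and 9.06 ± 2.43 RPKM at the 3 stages (SD, n = 3), a log2 difference of 5.14 (SE 0.22, limma adjusted p = 4.87e-25). Alpl, the tissue-nonspecific alkaline phosphatase, which can dephosphorylate osteopontin, rose by 4.37 (SE 0.16, limma adjusted p = 1.25e-27), with levels of 9.995 ± 1.57, 75.6 ± 3.87 and 209 ± 33.7 RPKM. Acp5, the tartrate-resistant acid phosphatase, rose by 2.74 (SE 0.24, limma adjusted p = 3.05e-13). The kinase Fam20c, which phosphorylates SIBLING proteins in the Golgi, rose by less, 0.72 (SE 0.17, limma adjusted p = 0.000648), from 6.17 ± 0.227 to 10.4 ± 1.91 RPKM. Matrix metalloproteinase gene Mmp3, whose product cleaves osteopontin, was at 1.14, 3.38 and 0.334 RPKM on average at the 3 stages and fell by 1.22 (SE 0.28, limma adjusted p = 0.000514). F13a1, a transglutaminase that cross-links matrix proteins, fell by 0.76 (SE 0.20, limma adjusted p = 0.00234). Mmp9 was called lower at −0.86 (SE 0.28, limma adjusted p = 0.0136), a call that held in 10 of 17 other settings.

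Of 10 tested receptor genes, 1 (10%) was higher, 3 (30%) lower and 6 not called, against 12.6% and 18.6% of all genes. Itga4, an integrin chain that binds osteopontin, was the 1 called higher, by 1.41 (SE 0.25, limma adjusted p = 1.26e-05), at 0.0756 RPKM at day 0 and 0.259 at day 7, whereas 3 passed upward when libraries were rescaled by median-of-ratios factors. Itgav, the αv integrin chain that pairs with β3 or β5 to bind osteopontin and bone sialoprotein, had means of 51.6 ± 6.16, 35.5 ± 4.16 and 26.4 ± 1.66 RPKM at days 0, 4 and 7 (SD, n = 3) and fell by 0.96 (SE 0.16, limma adjusted p = 2.45e-06). Itga9, which encodes an integrin chain that binds thrombin-cleaved osteopontin, fell by 0.94 (SE 0.16, limma adjusted p = 9.05e-06), and Itgb5 by 0.49 (SE 0.16, limma adjusted p = 0.0124), a call that held in 15 of 18 other settings. Itgb3 did not pass the test, at 0.21 (SE 0.16, limma adjusted p = 0.352). Cd44, the hyaluronan receptor that also binds osteopontin, was at 44.2 ± 4.26, 83.1 ± 9.45 and 48.8 ± 2.09 RPKM, with a log2 difference between day 0 and day 7 of 0.15 (SE 0.15, limma adjusted p = 0.5). Both were called higher in 3 of 18 other settings, median-of-ratios scaling included.

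Of 13 regulators, 6 (46.2%) rose and 3 (23.1%) fell, against 12.6% and 18.6% of all genes. Dlx3, a homeobox gene of late osteoblasts, rose most, by 4.51 (SE 0.25, limma adjusted p = 2.11e-20), with levels of 0.0586, 1.74 and 5.37 RPKM on average at the 3 stages. Mef2c, a transcription factor that controls Sost in osteocytes, rose by 3.19 (SE 0.16, limma adjusted p = 7.42e-22). Sp7, the osteoblast factor osterix, rose by 1.76 (SE 0.16, limma adjusted p = 1.16e-12), from 22.6 ± 4.39 to 76.5 ± 12.4 RPKM. The homeobox genes Msx2 and Msx1 fell by 1.91 (SE 0.16, limma adjusted p = 5.84e-14) and 1.54 (SE 0.18, limma adjusted p = 6.92e-10). Dlx6 was called lower at −0.55 (SE 0.21, limma adjusted p = 0.043) and kept that call in 7 of 18 other settings. Runx2, the main osteoblast transcription factor, was at 8.06 ± 0.422, 9.12 ± 0.706 and 9.47 ± 0.674 RPKM (SD, n = 3), and its difference of 0.23 (SE 0.15, limma adjusted p = 0.268) did not pass, although 4 of 18 other settings called it higher. Dlx5, which binds the Ibsp promoter, was at 0.11 (SE 0.22, limma adjusted p = 0.747).

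**Figure D5:**
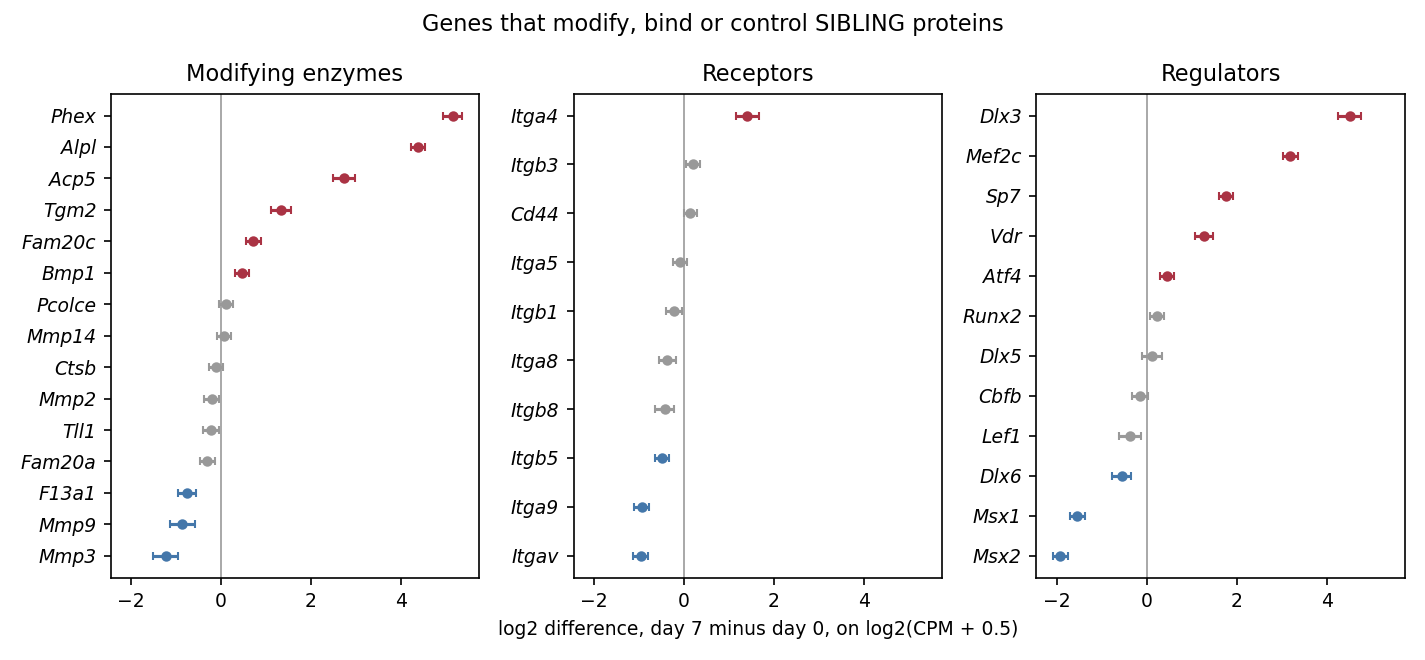
The log2 difference between day 7 and day 0 with its SE for 37 of the 38 tested genes that modify, bind or control SIBLING proteins, in red where higher and in blue where lower at an adjusted p under 0.05, and in grey where not called. Rises of over 4 appear for Phex, Alpl and Dlx3, and 3 of the 10 receptors are in blue.

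Spp1 is also made by macrophages and osteoclasts, so markers of these cells are given beside it. All 7 tested macrophage markers were higher at day 7, against 12.6% of all genes (1 more, Fcgr1, was under the filter). The summed CPM of the 8 was 60.9 to 105.8 at day 0, 120.5 to 130.9 at day 4 and 116.6 to 154.3 at day 7. Lyz2 was the larger part of it, and without Lyz2 the sum was 13.9 to 24.9, 31.6 to 36.7 and 32.2 to 41.4. The pan-leukocyte gene Ptprc was at 0.0366, 0.105 and 0.129 RPKM on average. Of 9 osteoclast markers, 3 were higher, 1 lower and 1 not called, and 4 were under the filter, with at most 1 read of Dcstamp and 4 of Calcr, the calcitonin receptor, in a library. The summed CPM of the 9 osteoclast markers was 177.7 to 224.9, 382.6 to 393.0 and 377.7 to 388.2. Ctsk was the larger part of it, and without Ctsk the sum was 26.2 to 29.8, 39.5 to 46.6 and 35.7 to 44.7. By mean RPKM, 3 of the 5 tested osteoclast markers and 1 of the 7 tested macrophage markers were highest at day 4. For neither cell type was the sum lower at day 7 than at day 4 in every library. The part of these cells in the level of Spp1 was not tested. Of the 7 osteoblast markers 6 were higher, against 12.6% of all genes, and Runx2 was not called in the main test. Of the 5 osteocyte markers 3 were tested (Sost, Phex and Capg), and these 3 were higher. Fgf23 had at most 3 reads in a library, and Pdpn was listed at 0 under 2 identifiers. The 0 of Pdpn is not read as absence, since only unambiguous reads were counted. Chondrocyte markers had a summed CPM of 965 to 2748 at day 0 and 293 to 818 at day 7, and endothelial markers of at most 2.34. Of 7 chondrocyte markers tested, 2 were higher and 3 lower, against 12.6% and 18.6% of all genes. Col2a1, the most abundant of them by mean RPKM at each stage, went from 239 at day 0 to 53.5 at day 7, and Sox9 and Col9a1 were also lower. Acan went from 5.21 to 10.96 RPKM, a call that held in 11 of 18 other settings, and Col10a1 from 0.759 to 2.61 RPKM. The non-coding gene Gm42418 took 0.110 to 11.96% of the CPM of a library and Plekhh2 7.95% of day 7 replicate 3, and totals without these 2 genes, an alternative added after the data were seen, left the call of each member in place.

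Finally, genes with the pattern most like each member were ranked among 12782 genes by the root mean square difference of log2(CPM + 0.5) over the 9 libraries, each gene set to 0 at its day 0 mean. Pearson's r beside it describes 9 libraries that share 3 stages and 2 tables. For Ibsp the nearest gene was Dmp1 and for Dmp1 it was Ibsp, at a difference of 1.04 and r of 0.990. Ranked by r instead, Dmp1 was the 34th gene for Ibsp and Ibsp the 18th for Dmp1. The next genes by root mean square difference were, for Ibsp, Col13a1 (2.05) and Col22a1 (2.15), which encode non-fibrillar collagens, the sphingomyelinase gene Smpd3 (2.35) and Ndufa4l2 (2.47). For Dmp1 they were Col22a1 (1.38), Col13a1 (1.46), Ndufa4l2 (1.60) and the receptor phosphatase gene Ptprz1 (1.72).

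Spp1 had another set of neighbours, all with their highest mean at day 4: Fxyd5 (0.14), Fam189a2 (0.18), Serping1 (0.22), Lpin3 (0.23) and Eln (0.25), which encodes elastin. Fxyd5, a regulator of the sodium pump, was at 2.61, 15.6 and 8.84 RPKM at the 3 stages. By this measure, which weighs the size of a change, Dmp1 and Ibsp were the 12779th and 12780th of the 12782 genes in likeness to Spp1, whereas by Pearson's r they were the 180th (0.944) and the 557th (0.894). Mepe, whose difference is bounded by its low reads, lay nearest to Spock1 (0.28), Aldoc (0.29), Enpp6 (0.34), P3h2 (0.34) and Pygl (0.35). By Pearson's r, Spp1 had 2 of these 5 neighbours, Mepe 1, and Ibsp and Dmp1 none.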

How the data were processed

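RNA-seq of calvarial osteoblasts at day 0, day 4 and day 7, with 3 libraries per stage, was analysed. According to the methods and the submitters' processing notes, the authors aligned reads to Ensembl release 76 (GRCm38) with STAR 2.0.4b and counted uniquely aligned reads per gene with featureCounts, with the strand setting not given in the sources used here. The authors deposited CPM, scaled to the reads on genes of a library, and RPKM, divided also by the length of the gene model, which was 1648 to 2760 bases for the members and the same in all tables. In each library 100% of CPM values were whole multiples of 1 read (within 0.05 of a read), and these recovered reads ran from 7741204 to 37306090 per library. Counting intervals cover counting error only, since PCR copies were not marked.

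Stages come from the sample titles. The test between day 0 and day 7 used limma 3.58.1 (R 4.3.3) on log2(CPM + 0.5), with a mean-variance trend, a minimum mean CPM of 1, and Benjamini-Hochberg adjustment over 12712 genes at 0.05. The filter left out 11075 genes with reads. Ratios between members were compared by exact permutation tests. edgeR 4.0.16, DESeq2 1.42.0 and voomWithQualityWeights, which the methods name, were run on recovered reads as alternatives, beside other pseudocounts, filters, scalings and left-out libraries. The script was tested on simulated data. The numbers of the titles were not used as pairs in the main test. No pair of replicates was a duplicate, since a chi-square test of their reads gave at least 11.7 per degree of freedom. The methods call them biological replicates. The members and gene lists were chosen with earlier results of these data known. Named genes are the members and Dspp, the locus neighbours, in each role of the partner list the 3 largest rises and 3 largest falls past the threshold plus 8 genes listed by symbol, and the 5 genes most like each member, and others were named after their values were seen. The values of 1 gene that this rule names are not reported here.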

Additional observations from a re-analysis of the deposited data

How the results depend on the processing

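The 4 members kept their direction and their call under all 71 alternatives, and the log2 difference between day 7 and day 0 ran from 9.33 to 9.79 for Ibsp, 6.84 to 8.98 for Dmp1 and 1.59 to 2.01 for Spp1. A filter at a mean of 5 CPM left no value for Mepe. With the replicate number as a block, a paired fit, Ibsp stayed at 9.43, Dmp1 at 7.73, Spp1 at 1.76 and Mepe at 3.51, and 1463 genes were higher and 1950 lower. Of the partner and neighbour genes, Dlx6 lost its call there and no other gene did. The deviations of same-numbered libraries correlated at −0.02, −0.18 and −0.44, and those of unlike-numbered libraries at −0.27 to 0.36. Deviations from a mean of 3 libraries are tied to each other, so these values cannot decide whether the numbers mark pairs.

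Genes called higher numbered 1602, against 2843 with median-of-ratios scaling, 2818 with edgeR, 2581 with DESeq2 and 3148 with voomWithQualityWeights. Genes called lower numbered 2369, and 1527 to 4696 with a library left out, the lowest without day 0 replicate 2 (1548 without day 7 replicate 2) and the highest without day 0 replicate 3, which had the fewest reads and the largest share of Gm42418. The cause was not tested. The median log2 difference of all genes was −0.11 as deposited and −0.01 with median-of-ratios scaling.

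Of 96 alternatives to the ratio differences, 95 kept their direction. Ibsp over Dmp1 between day 0 and day 4 reversed from −0.47 to 1.22 with a pseudocount of 0.5 RPKM, which exceeds the level of Dmp1 at day 0. As TPM, the log2 of day 4 over day 0 was 8.495 for Ibsp and 2.78 for Spp1. Differences near 0 that did not pass the test changed sign for Ctsb (0.0012 with median-of-ratios scaling, 0.0015 with DESeq2 and 0.0304 with voomWithQualityWeights), Itga5 (0.0322, 0.0357 and 0.0607 in the same order, and 0.0331 with edgeR) and Dlx5 (−0.0592 to 0.294 with a library left out, below 0 without day 7 replicate 1). Depth limits the day 0 levels of Dmp1 and Mepe, which rest on 17 reads and 1 read.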
